A study of Homo sapiens with 32 samples.

Results

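The mitochondrial chromosome (chrM) was examined in iCLIP libraries of mRNA export factors. Its members are all crosslinked positions that the deposited replicate files place on chrM, on either strand. They numbered 2581 of 2504843 distinct positions, and they carried 5130 of 2729065 tags, a tag being a read left after removal of duplicates and counted at its crosslinked base. In iCLIP, proteins are joined to the RNA they touch by UV irradiation of live cells, RNA is pulled down with the protein, and cDNA ends map the crosslinked base.

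The cells are labelled FlipIn HEK293T (FlpIn-293 in the growth protocol), an established line derived from human embryonic kidney, in which a FLAG-tagged protein is made from an inducible transgene. Alyref and Chtop are subunits of TREX, which couples transcription to mRNA export, and Nxf1 is the nuclear export receptor. Expression was induced over 48 h with tetracycline, at 10 ng/mL in Alyref and Chtop cells and at 5 ng/mL in Nxf1 cells. Control cells carried an empty FLAG construct, and the labels give no tetracycline dose for them. The anti-FLAG antibody was common to all 4 groups. Each group had 3 libraries, sequenced as 8 lane runs per group that the authors had merged. The labels do not say that the replicates came from separate cultures, so p-values measure the spread between these libraries only.

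As background, the mitochondrial chromosome is a small circle that is transcribed on both strands, outside the nucleus, by its own RNA polymerase. Long polycistronic RNAs are cut at the tRNAs that lie between the other genes, which releases the rRNAs and the mRNAs. It encodes 2 rRNAs, 22 tRNAs and 13 subunits of the respiratory chain and ATP synthase. The control region holds the promoters and the origin of one replication strand. Alyref, Chtop and Nxf1 act on nuclear transcripts, and the chrM share therefore describes tags from RNA that is made outside the nucleus.

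The chrM of the files is another sequence version than the annotated reference chrM of GRCh37. Its positions ran to 16572, whereas the reference has 16569 bases. Genes were placed by the reference annotation without a shift, and tags within 3 nt of a gene boundary were set aside as a boundary class. The tagged base gave a check on the numbering, since crosslinking favours uracil. For positions up to 3108, uracil at the tagged base was most frequent when the reference was moved by 2 nt (36.7% of 2668 library positions). For later positions it was most frequent after a move of 1 nt (41.1% of 2044). Of 9 narrower stretches, 7 peaked at the same moves and the others did not, so the placement was not settled base by base. Profiles along genes below use the stepwise move of 2 nt and then 1 nt, and a position in them may be off by up to 2 nt.

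The sequences below hold the tRNA stretches and the most used positions described further on. They are from the reference chrM of GRCh37, taken by gene name, 5′ to 3′ on the strand of the gene. The first lines show the 5 tRNA genes with the most tags, with bases 30 to 37 of each gene, which include the anticodon, in capitals. The last lines show the start of the small-subunit rRNA gene and the end of the large-subunit rRNA gene, with capitals on the bases where the most used positions fall under a move of 0 to 2 nt.
MT-TP, chrM:15956-16023, minus strand: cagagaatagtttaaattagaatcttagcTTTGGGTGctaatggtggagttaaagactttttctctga
MT-TH, chrM:12138-12206, plus strand: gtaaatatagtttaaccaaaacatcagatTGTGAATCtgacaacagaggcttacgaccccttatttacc
MT-TG, chrM:9991-10058, plus strand: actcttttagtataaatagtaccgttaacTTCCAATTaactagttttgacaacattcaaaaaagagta
MT-TM, chrM:4402-4469, plus strand: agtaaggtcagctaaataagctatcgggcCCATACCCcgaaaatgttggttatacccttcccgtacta
MT-TY, chrM:5826-5891, minus strand: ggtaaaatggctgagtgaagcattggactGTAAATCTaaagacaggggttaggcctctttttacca
MT-RNR1, first 60 nt, chrM:648-707, plus strand: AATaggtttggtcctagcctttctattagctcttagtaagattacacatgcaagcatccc
MT-RNR2, last 60 nt, chrM:3170-3229, plus strand: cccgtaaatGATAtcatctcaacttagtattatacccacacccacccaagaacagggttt

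Some libraries and stretches limit what can be read from these tags. Library depth ran from 7017 tags in Control 1 to 631704 in Alyref 2, and chrM tags from 19 in Control 1 to 1164 in Alyref 2. Across all chromosomes, 10 library pairs shared positions at a fixed offset of 1 to 3 nt more often than at the mirror offset, by 1.34 to 2.86 times. On chrM these pairs shared 279 positions at the offset and 222 at the mirror offset. Without the positions at the shared offset, the chrM share moved most in Chtop 1, from 0.206% to 0.0794%, and in Control 2, from 0.523% to 0.356%. The shared offset took 70.1% of the chrM tags of Chtop 1, and the mirror offset would have taken 58.8%. Depth, the offset and the replicate number moved together with some results below, and their part was not tested.

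The share of tags on chrM was low in every library and was lowest in the Alyref and Chtop libraries. Alyref 1, 2 and 3 had 0.214%, 0.184% and 0.133% of their tags on chrM. The Chtop libraries had 0.206%, 0.171% and 0.058%. The shares were 0.357%, 0.546% and 0.335% for Nxf1 and 0.271%, 0.523% and 0.471% for Control. All Nxf1 and Control libraries therefore lay above all Alyref and Chtop libraries. Counting error left a Wilson 95% interval of 0.173% to 0.423% for Control 1, the shallowest library, and of 0.248% to 0.512% for Nxf1 1. These intervals cover counting error only.

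**Figure D1:**
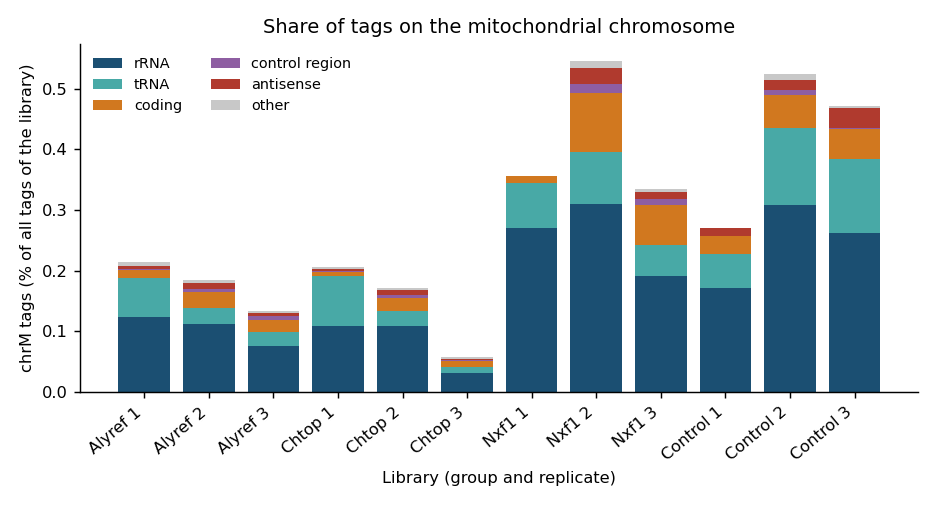
Each bar is a library, its height the percentage of all its tags that lie on chrM, split by class (other: boundary, overlap and between genes). The 6 Alyref and Chtop libraries sit between 0.058% and 0.214%, all below the 6 Nxf1 and Control libraries, which sit between 0.271% and 0.546%.

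The group means were 0.177% ± 0.041 (Alyref), 0.145% ± 0.077 (Chtop), 0.413% ± 0.116 (Nxf1) and 0.422% ± 0.133 (Control) (SD, n = 3). Nxf1 exceeded Alyref and Chtop by 0.251 percentage points (two-sided exact permutation test, p = 0.0238, the smallest that 3 against 6 libraries allow). Nxf1 cells had 5 ng/mL tetracycline, and Alyref and Chtop cells 10 ng/mL, so factor and dose cannot be told apart here. The difference had the same sign in replicates 1, 2 and 3 (0.146, 0.368 and 0.239 points), but after Benjamini-Hochberg adjustment over the 20 tests of shares the exact permutation p was 0.476. Permuting within replicate numbers gave an exact permutation p of 0.0741, the smallest that this design allows. Alyref and Chtop differed from Control by -0.244 and -0.276 points, again with the same sign at each replicate number (exact permutation p = 0.1 for both, the smallest that 3 against 3 allow; adjusted 0.667). Nxf1 differed from Control by -0.0089 points (exact permutation p = 1), and the sign was not the same at each replicate number. Without the positions at the shared offset, Nxf1 exceeded Alyref and Chtop by 0.219 points (exact permutation p = 0.0238), and the differences from Control were -0.158 points for Alyref and -0.229 for Chtop (exact permutation p = 0.3 and 0.2). A share of a library falls when the other tags rise, so fewer chrM tags and more nuclear tags cannot be told apart.

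Tags on chrM came mainly from the rRNAs. The 2 rRNA genes held 3033 tags (59.1%), the tRNA genes 882 (17.2%), the coding genes 738 (14.4%), the control region 135 (2.63%) and the strand opposite a gene 220 (4.29%). The boundary class held 119 tags, overlapping genes 2 and stretches between genes 1. Per length, the group means were highest in rRNA, then tRNA, then coding genes in all 4 groups, although in Chtop 1 the density of tRNA (550 CPM per kb) exceeded that of rRNA (431). Here densities are given as CPM (library-scaled tags, so that all tags of a library add to 1e+06) per kb of gene. In Control the mean density was 984 ± 279 CPM per kb in rRNA, 675 ± 257 in tRNA and 38.3 ± 11.7 in coding genes (SD, n = 3). In Nxf1 it was 1025 ± 240, 461 ± 117 and 51.7 ± 38.1. Alyref had 415 ± 99.2, 250 ± 151 and 17.1 ± 6.21, and Chtop 330 ± 176, 262 ± 254 and 10.9 ± 7.05. The control region had 33.5 ± 39.1 in Control, 66.4 ± 60.9 in Nxf1, 38.7 ± 15.2 in Alyref and 23.8 ± 12.5 in Chtop.

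No difference in the composition of the chrM tags passed the test between groups, but the test had little room to pass. The exact permutation p cannot fall under 0.1 for 3 against 3 libraries, or under 0.0238 for 3 against 6. The missed threshold therefore does not show that the groups were alike. The rRNA share ranged from 52.6% in Chtop 1 to 75.9% in Nxf1 1, with means of 58.8% ± 2.02 in Alyref, 56.8% ± 5.68 in Chtop, 63.3% ± 10.9 in Nxf1 and 59.3% ± 3.71 in Control (SD, n = 3). The coding share had means of 11.7% ± 5.13, 10.6% ± 6.71, 13.7% ± 8.96 and 10.4% ± 0.142 in the same order. Plus-strand tags made up 86.1% ± 3.12, 83.8% ± 4.76, 88.1% ± 1.39 and 87.8% ± 6.11. Among these 3 measures, the smallest exact permutation p over 12 comparisons was 0.167 (adjusted 0.667), for the plus-strand share of Nxf1 against Alyref and Chtop. That difference kept its sign when single libraries were left out, while several of the others changed sign. The replicate 1 libraries stood apart from the others of their factor. Coding tags were 5.75%, 3.09% and 3.45% of chrM tags in Alyref 1, Chtop 1 and Nxf1 1, and 12.6% to 19.8% in replicates 2 and 3 of these factors. Tags in tRNA genes were 29.9% and 40.2% in Alyref 1 and Chtop 1, against 14.4% to 17.3% in the other Alyref and Chtop libraries. These replicate 1 libraries had the fewest tags of their groups. Control 1, with 2 coding tags of 19, did not show this pattern (10.5% coding, 21.1% tRNA).

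The sense strand prevailed on chrM and in nuclear coding sequence, but the 2 were not measured alike. The chrM value pools rRNA, tRNA and coding genes, and the rRNA genes gave 3033 sense tags against 1 opposite them. Among coding genes, 70 tags lay opposite 81 sense tags in MT-ND5, and 6 lay opposite 125 in MT-CO1. Coding genes of chrM alone were not tested against nuclear coding sequence. Tags on the strand of a gene made up 96.2% ± 1.95 of chrM gene tags and 97.9% ± 2.12 of tags in nuclear coding sequence (SD, n = 12). The within-library difference was -1.73 points (two-sided exact sign-flip permutation test over the 12 libraries, p = 0.0356), with chrM lower in 8 of 12. Without Alyref 2, Alyref 3, Chtop 2, Chtop 3, Nxf1 2 or Control 1 in turn, p was 0.0586 to 0.0713 in the same exact permutation test. It was -2.95 points in Alyref, -1.74 in Chtop, -0.645 in Nxf1 and -1.60 in Control. The difference between groups was not tested.

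The large-subunit rRNA gene MT-RNR2 held 2117 tags and the small-subunit gene MT-RNR1 held 916. MT-RNR2 values in CPM were 910, 761 and 519 in Alyref, 659, 776 and 205 in Chtop, 1721, 2165 and 1383 in Nxf1, and 1283, 2295 and 2055 in Control. MT-RNR1 values in CPM were 332, 364 and 245 in Alyref, 425, 308 and 112 in Chtop, 984, 940 and 535 in Nxf1, and 428, 794 and 568 in Control. For both genes the lowest Nxf1 library lay above the highest Alyref or Chtop library, while Nxf1 and Control overlapped. The ratio of tags per length, MT-RNR2 over MT-RNR1, was 1.77 to 2.21 in the 3 Control libraries and 0.948 to 1.68 in the other 9. The Control ratios rest on few tags of MT-RNR2 and MT-RNR1, 9 and 3 in Control 1, 107 and 37 in Control 2, and 76 and 21 in Control 3. The difference in ratio was not tested.

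Along MT-RNR2 the tags were concentrated near the 3′ end. The most used positions of chrM were 3181 and 3182 on the plus strand, with 51 and 50 tags in 9 and 10 libraries. They lie within the capitals of the MT-RNR2 line, 47 to 50 nt before the last base of the gene. At 3181, Alyref had 18 tags, Chtop 12, Nxf1 16 and Control 5. The 50-nt window from base 1501 held 239 tags, whereas the other full windows of MT-RNR2 held 22 to 135. The last 60 nt held 84 of 868 MT-RNR2 tags in Alyref, 53 of 537 in Chtop, 70 of 520 in Nxf1 and 36 of 192 in Control. The peak was therefore present with the empty FLAG construct too.

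The third most used plus-strand position was 650, with 27 tags in 8 libraries, at the junction of the tRNA gene MT-TF and MT-RNR1. Alyref had 12 tags there, Chtop 10, Nxf1 5 and Control 0. These counts are not scaled by depth, and the Control libraries had only 19, 244 and 174 tags on all of chrM. The neighbouring position 649 held another 16 tags, 6 in Alyref, 8 in Chtop, 1 in Nxf1 and 1 in Control. Both fall in the boundary class, so they do not enter the rRNA share.

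Sequence that also occurs in the nuclear genome limits these profiles, since the authors kept uniquely mapped reads. In MT-RNR1, bases 401 to 550 held 1 tag, and every 30-base stretch that starts there also occurs on the nuclear chromosomes. A 30-mer without such an exact copy is called unique here. Over both rRNA genes, the windows with no unique 30-mer held 17.2 tags per 50 nt, and the windows with at least 50% unique 30-mers held 76.6. Unique 30-mers made up 34.9% of MT-RNR1 and 61.9% of MT-RNR2, so that the higher density of MT-RNR2 was not separated from mappability.

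**Figure D2:**
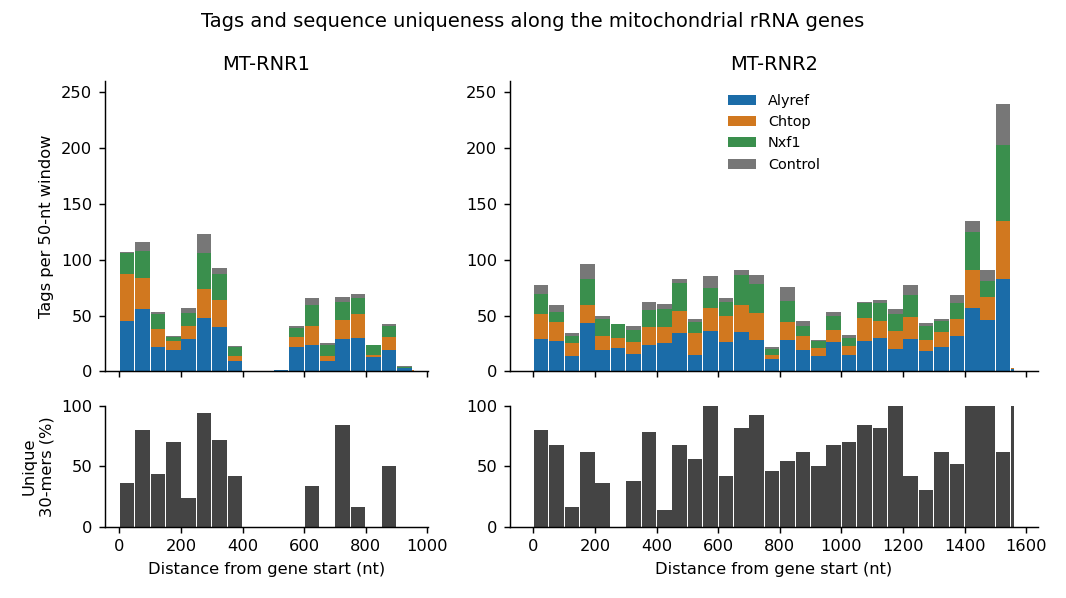
Upper panels show tags per 50-nt window along MT-RNR1 and MT-RNR2, stacked by group with the libraries of a group summed. Lower panels show the percentage of 30-mers starting in the window that have no exact copy on the nuclear chromosomes. The window from base 1501 of MT-RNR2 stands highest with 239 tags, and the empty stretch of MT-RNR1 from base 401 has 0% unique 30-mers.

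Copies of mitochondrial sequence in the nuclear genome were also examined, since reads of one can be placed on the other. The reference holds 16 nuclear stretches of at least 300 nt that share exact 30-mers with chrM. They held 292 tags in all, against 5130 on chrM. Their share of all tags was 0.0079% ± 0.0038 in Alyref, 0.012% ± 0.013 in Chtop, 0.025% ± 0.022 in Nxf1 and 0.040% ± 0.034 in Control (SD, n = 3). The largest copy, chr1:564464-570304, had 96 tags, 66 of them on the plus strand. Whether these reads came from the nuclear copy or from chrM was not tested.

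Of the 22 tRNA genes, 19 had tags, with 0 to 127 tags and a median of 26. The 5 with the most were MT-TP (127 tags), MT-TH (115), MT-TG (110), MT-TM (90) and MT-TY (87), which encode the tRNAs for proline, histidine, glycine, methionine and tyrosine. MT-TP had 10, 20 and 19 tags in Alyref, 4, 24 and 5 in Chtop, 1, 18 and 11 in Nxf1, and 0, 7 and 8 in Control. MT-TY had 8, 8 and 8 tags in Alyref, 10, 10 and 6 in Chtop, 1, 12 and 11 in Nxf1, and 0, 9 and 4 in Control. The 8 tRNA genes without a unique 30-mer held 0 to 43 tags each, and the 7 with at least 50% unique 30-mers held 30 to 127. The 7 genes in between had 0 to 115 tags, among them MT-TH, MT-TM and MT-TY.

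Summed over the tRNA genes, the tags were concentrated in the middle. Bases 30 to 37, in capitals in the tRNA lines above, held 348 of 932 tRNA tags (37.3%) on 11.7% of the tRNA length. This share was 28.9% to 47.3% in the Alyref libraries, 32.9% to 45.0% in Chtop, 38.1% to 66.7% in Nxf1 and 43.3% and 54.3% in Control 2 and 3. Control 1 had 3 of its 4 tRNA tags there and Nxf1 1 had 4 of 6. Widening the stretch by 2 nt at each side, which allows for the numbering, gave 42.6% of tags on 17.5% of the length. Bases 14 to 18 held 116 tags (12.4% on 7.29% of the length), and base 9 alone held 52. From base 50 on there were 77 tags (8.26% on 28.5% of the length). The tag is the base before the read, and the study dropped short reads. A read that starts there and ends within the gene is short, and the part of this in the low count was not tested. The middle stretch held 62 of 88 tags in MT-TY, 62 of 121 in MT-TH, 58 of 127 in MT-TP, 38 of 95 in MT-TM and 33 of 111 in MT-TG. The single base with the most tags in MT-TG was base 16. Genes with fewer tags varied, and not all showed the concentration. The stretch held 30 of 43 tags in MT-TT, but 10 of 68 in MT-TL1, 1 of 30 in MT-TL2, 1 of 14 in MT-TS2 and 1 of 13 in MT-TV.

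**Figure D3:**
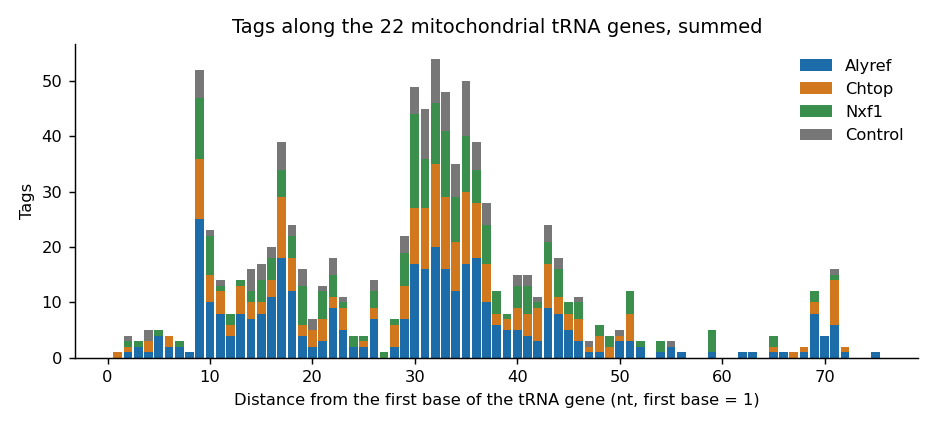
Bars give the tags at each base from the start of the gene, summed over the 22 tRNA genes and stacked by group with libraries summed. Tags pile up at bases 30 to 37 in each of the 4 groups (348 of 932 tags in all). Few lie beyond base 50, where a read that ends within the gene is short.

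On the minus strand of chrM the most used positions were all in tRNA genes. They were 15990 in MT-TP with 15 tags in 10 libraries, and 5860 and 5862 in MT-TY with 14 and 13 tags in 11 and 10 libraries. Each of these 3 positions had tags in all 4 groups. Of the 2581 positions of chrM, 2183 were on the plus strand and 398 on the minus strand. In all, 1618 (62.7%) were seen in 1 library only, 101 in 6 or more libraries and 114 in all 4 groups.

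All 13 coding genes had tags, with 14 to 125 each over the 12 libraries. Among the subunits of cytochrome c oxidase, MT-CO1 had 125 tags, MT-CO2 72 and MT-CO3 78, and MT-CYB of the cytochrome bc1 complex had 87. The NADH dehydrogenase subunits had 39 tags in MT-ND1, 27 in MT-ND2, 21 in MT-ND3, 101 in MT-ND4, 24 in MT-ND4L, 81 in MT-ND5 and 32 in MT-ND6. The ATP synthase subunits MT-ATP6 and MT-ATP8 had 37 and 14 tags. Per length, with genes placed by the stepwise move, they had 25.9 (MT-ND2) to 107 (MT-CO3) tags per kb over all libraries. With libraries pooled by group, the highest density in Alyref was that of MT-ND4L (33.3 CPM per kb), with MT-CO3 at 32.9. It was that of MT-CO2 in Chtop (24.5) and in Nxf1 (119, with MT-CO3 at 112), and of MT-CO3 in Control (113). These ranks rest on few tags, such as 2, 6 and 5 of MT-ND4L in the Alyref libraries. Outside the boundary class, MT-CO3 had 0, 3 and 3 tags in the Control libraries. A difference in rank between groups was not tested. The rRNA genes MT-RNR2 and MT-RNR1 had 1360 and 990 tags per kb over all libraries, placed by the stepwise move.

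**Figure D4:**
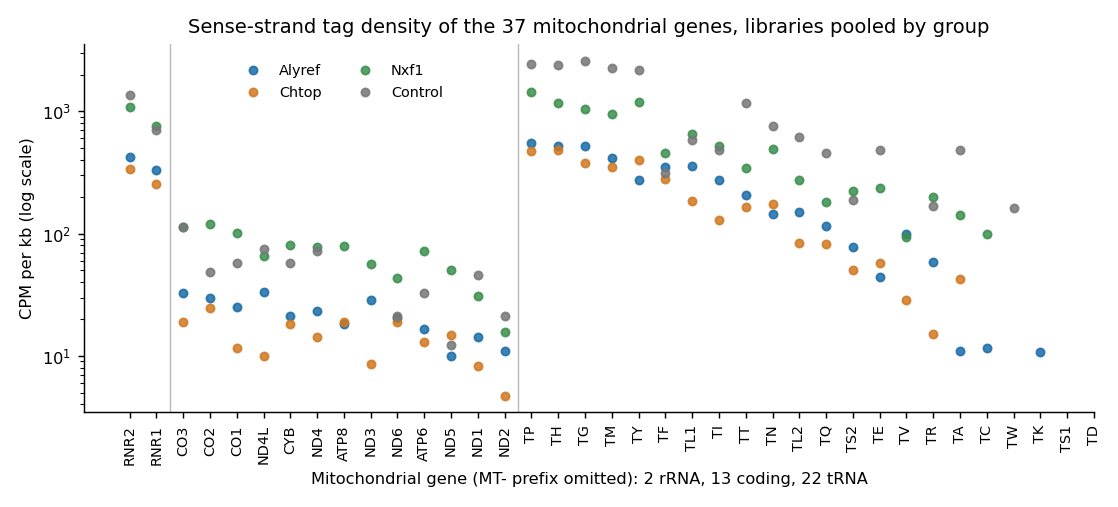
Points give sense-strand tag density in CPM per kb for each of the 37 mitochondrial genes on a log scale, with the 3 libraries of a group pooled and genes placed by the stepwise move, and those without tags in a group left blank. Coding genes lie below the rRNA genes in all 4 groups, and Nxf1 and Control lie above Alyref and Chtop for MT-RNR1 and MT-RNR2.

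Tags opposite the genes and in the control region were mostly on the minus strand. Minus-strand tags numbered 669, of which 306 were in the tRNA genes of that strand, 194 were antisense, 125 were in the control region and 32 in MT-ND6, the only coding gene of that strand. Opposite MT-ND5 lay 70 tags, close to the 81 on its own strand, followed by MT-CYB with 24 and MT-ND4 with 20. Opposite MT-ND6, on the plus strand, lay 18 tags. In the control region 125 of 135 tags (92.6%) were on the minus strand. Of these, 108 lay between positions 200 and 410, spread over 59 positions with at most 7 tags at 1 position (303). This stretch is the one that transcripts from the light-strand promoter cross first. Alyref had 50 of the 108 tags, Chtop 27, Nxf1 27 and Control 4, as counts that are not scaled by library depth.

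The control region share of chrM tags was 2.69% ± 1.60 in Alyref, 2.11% ± 0.949 in Chtop, 1.71% ± 1.48 in Nxf1 and 0.738% ± 0.832 in Control (SD, n = 3). The Control libraries had 0 of 19, 4 of 244 and 1 of 174 chrM tags there. A count of 0 allows a share of up to 15.8% in Control 1, and up to 10.3% in Nxf1 1, which had 0 of 29. Alyref and Chtop exceeded Control by 1.95 and 1.37 points (exact permutation p = 0.2 for both, adjusted 0.667), Nxf1 by 0.969 points (exact permutation p = 0.4, adjusted 0.923), and the groups overlapped.

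In the fit across all genes with edgeR, 8 mitochondrial genes passed the count filter among 3248 genes tested. They were MT-RNR1, MT-RNR2, MT-CO1, MT-ND4, MT-TG, MT-TH, MT-TP and MT-TY. Fold changes are log2 values after TMM normalisation, with p-values from edgeR's quasi-likelihood test, adjusted by Benjamini-Hochberg over all 3248 genes. The other 29 did not pass the filter and were not tested.

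In Chtop against Control, 4 of the 8 were lower and 0 higher, where 14.9% of all genes tested were called in either direction. The glycine tRNA gene MT-TG had a log2 fold change of -2.81 ± 0.76 (SE; adjusted p = 0.0125), MT-TP -2.32 ± 0.77 (adjusted p = 0.0367), MT-RNR2 -1.83 ± 0.51 (adjusted p = 0.0150) and MT-RNR1 -1.33 ± 0.46 (adjusted p = 0.0424). The median of the 8 genes was -2.24, and that of all genes 0.21. The values for MT-CO1, MT-ND4, MT-TH and MT-TY ran from -2.44 to -1.94 and missed the threshold. Without Chtop 3, Control 2 or Control 3, the number called was 0 of 10, 14 and 11 tested, where 187 of 2931, 224 of 4839 and 95 of 4814 genes were called. It was 8 of 14 tested without Alyref 1 (631 of 4950 genes), 7 of 14 without Chtop 1 (682 of 4934 genes) and 7 of 13 without Nxf1 1 (566 of 4662 genes).

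In Alyref against Control, 0 of the 8 were called by edgeR, where 0.277% of all genes were called. All 8 had negative values, from -2.71 in MT-TY to -1.15 in MT-RNR1, with a median of -1.99 against 0.17 over all genes. The value of MT-CO1 rests on Control 2, which held all 8 Control tags of this gene, and its fitted value was 6.14 without that library. An unadjusted p under 0.05 was reached by 7 of the 8, and by 509 of all 3248 genes. DESeq2 gave an adjusted p to 2 of the 8 and called 0 of these 2, where it called 10 of 478 genes. With the replicate number as a block, 3 of the 8 were called lower, where 75 of 3248 genes were called. Without the replicate 1 libraries it was 6 of 20 mitochondrial genes tested, where 124 of 8299 genes were called. Without Alyref 1 it was 6 of 14 (84 of 4950 genes), and without Chtop 1 it was 3 of 14 (81 of 4934 genes). In Nxf1 against Control, 0 of the 8 were called, as were 0% of all genes. For the 8 genes an unadjusted p under 0.05 was reached by 0, for all genes by 226, and DESeq2 called 0 mitochondrial genes and 1 of all genes. Values ran from -1.12 in MT-TG to 0.98 in MT-CO1. The 3 comparisons share the Control libraries.

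In Nxf1 against the mean of Alyref and Chtop, 5 of the 8 were higher and 0 lower, where 15.2% of all genes were called in either direction. The tetracycline dose differed with the factor here too, and dose and factor cannot be told apart. MT-CO1, a core subunit of cytochrome c oxidase, had 12.3, 49.1 and 31.5 CPM in Alyref, 0, 26.0 and 9.31 in Chtop, 0, 201 and 134 in Nxf1, and 0, 172 and 0 in Control. Nxf1 2 and 3 stood above every Alyref and Chtop library, while Nxf1 1 had no tag, and so the groups overlapped. Its log2 fold change was 2.81 ± 0.52 (SE; adjusted p = 0.000444). MT-ND4 had a value of 2.37 ± 0.55 (adjusted p = 0.00437), MT-TP 1.61 ± 0.56 (adjusted p = 0.0466), MT-RNR1 1.51 ± 0.34 (adjusted p = 0.00386) and MT-RNR2 1.49 ± 0.41 (adjusted p = 0.0132). The tRNA genes MT-TG, MT-TH and MT-TY had values of 1.37 to 1.67 and missed the threshold. The median of the 8 was 1.56, against -0.04 over all genes. Without Nxf1 2 the number called was 1 of 9 tested (129 of 2931 genes), without Nxf1 3 it was 2 of 10 (55 of 2955 genes) and without Chtop 3 it was 3 of 10 (356 of 2931 genes). It was 11 of 14 without Alyref 1 (648 of 4950 genes) or without Chtop 1 (687 of 4934 genes), and 8 without Control 1 (of 13) or Control 2 (of 14), where 622 of 4651 and 625 of 4839 genes were called. Without the replicate 1 libraries it was 15 of 20, where 1011 of 8299 genes were called. Without the positions at the shared offset it was 4 of 7, where 438 of 3143 genes were called.

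**Figure D5:**
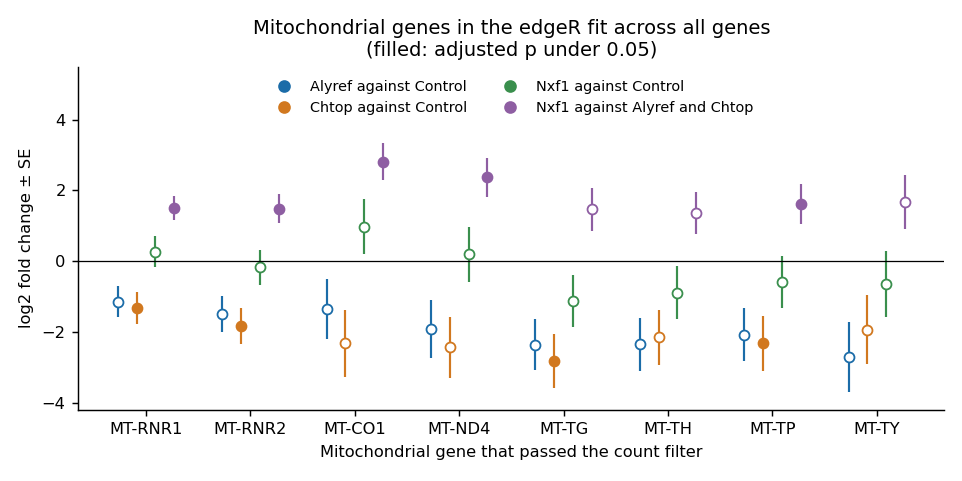
Points give the log2 fold change of the 8 mitochondrial genes tested in each of the 4 comparisons, with bars of 1 SE, and filled points mark an adjusted p under 0.05. All values of Alyref and Chtop against Control are negative, all of Nxf1 against Alyref and Chtop are positive, and those of Nxf1 against Control lie on both sides of 0.

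Nuclear genes for the mitochondrial RNA machinery were taken as a list of 40, of which 9 were tested. Against Control, 0 of the 9 were called by edgeR for each of the 3 factors. Of all genes, 0.277% were called for Alyref, 14.9% for Chtop and 0% for Nxf1. The median log2 fold change of the 9 was 0.70 in Alyref, 0.62 in Chtop and 0.44 in Nxf1. An unadjusted p under 0.05 was reached by 1, 0 and 1 of them, and by 509, 1081 and 226 of all 3248 genes. In Nxf1 against Alyref and Chtop, 1 of the 9 was lower and 0 higher, a share near the 15.2% of all genes called in this comparison. This member was PTCD3, a protein of the mitochondrial ribosome (440 tags; log2 fold change -1.53 ± 0.41, adjusted p = 0.0119). Its adjusted p was 0.0903 without Nxf1 2, 0.167 without Nxf1 3 and 0.0861 with DESeq2. The other members with the most tags were LRPPRC, which stabilises mitochondrial mRNAs (720 tags), the helicase DHX30 (363 tags) and the mitochondrial poly(A) polymerase MTPAP (339 tags), with values of -0.71, 0.13 and -0.12 in that comparison.

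Positions with more than 1 tag were 2.41% to 8.41% of chrM positions in the 10 libraries with over 90 chrM positions, and 1.16% to 2.64% of nuclear positions. The chrM value was above the nuclear value in each of the 10, and it was 0% in Nxf1 1 and Control 1, which had 29 and 19 positions.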

How the data were processed

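The deposited values are counts: for each library, the authors listed every crosslinked base with its strand and how many reads remained there after removal of duplicates by random barcodes. Per the labels and the study's methods, they used Bowtie 1.1.2, UMI-tools 0.5.3 and STAR 2.4.2a with unique mapping to hg19, and took the base before the read, or a deletion in it, as crosslinked. Their pooled files per group were not used. No column with values of a sample stayed unused (0).

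Positions were assigned by strand with GENCODE release 44 mapped to GRCh37. On chrM, tags within 3 nt of a gene boundary were set aside, because the files use another sequence version than the reference. Genes were tested with edgeR 4.0.16 (TMM, filterByExpr, quasi-likelihood test, all 12 libraries, R 4.3.3), after a check on simulated counts, and DESeq2 1.42.0 was an alternative. Shares were compared by exact permutation over libraries (scipy 1.17.1), with Benjamini-Hochberg adjustment over 20 tests. The threshold was 0.05. A 0 was read as up to 3 tags. Mappability was the share of chrM 30-mers with no exact copy on the nuclear chromosomes, and near matches were not counted. Nuclear copies are stretches of shared 30-mers joined over gaps of up to 100 nt.

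Named were all rRNA and coding genes, the 5 tRNA genes and the 3 positions per strand with the most tags, and the 4 listed nuclear genes with the most tags. Members and lists were chosen with earlier results of these data known.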

Additional observations from a re-analysis of the deposited data

Results flagged for a closer look

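Effects that differed between factors under the same Control are the following. The share of tags on chrM was higher in Nxf1 than in Alyref and Chtop by 0.251 percentage points (exact permutation p = 0.0238, adjusted 0.476). In the edgeR fit, Nxf1 minus the mean of Alyref and Chtop on the log2 scale was 2.81 for MT-CO1, 2.37 for MT-ND4, 1.61 for MT-TP, 1.51 for MT-RNR1 and 1.49 for MT-RNR2, each with an adjusted p under the threshold. In these comparisons factor and tetracycline dose cannot be told apart. Groups of 3 libraries are too small for a test of single outlying libraries.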

How the results depend on the processing

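Depth limits the shares of the replicate 1 libraries, and the stepwise annotation move and the removal of positions at a shared offset were chosen after seeing the data. The chrM share kept its direction in Alyref and Chtop against Control and in Nxf1 against Alyref and Chtop under all alternatives run. In the last comparison the exact permutation p missed the threshold with the replicate block (0.251 points, p = 0.0741) and without the replicate 1 libraries (0.304 points, p = 0.133), designs that cannot pass it. Leaving out single libraries gave 0.185 to 0.290 points, and p was 0.0714 without Nxf1 1, Nxf1 2 or Nxf1 3, again the smallest that the design allows. Nxf1 minus Control in chrM share was 0.0256 points without positions at a shared offset and -0.0843 to 0.0419 leaving out single libraries.

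The other shares were not past the threshold, which the comparisons of 3 against 3 libraries cannot reach. The control region share of each factor minus Control, the coding share of Nxf1 minus Control and the plus-strand share of Nxf1 minus Alyref and Chtop kept their sign in all settings, and the others changed sign in the settings named here, in percentage points; the cause was not tested. For Alyref minus Control, the rRNA share was 0.524 with a guard of 0 nt, 0.320 with the annotation moved by 1 nt and 0.148 moved by 2 nt or stepwise, and for Chtop minus Control the coding share was -0.0345 under each of these moves. Without the replicate 1 libraries, the plus-strand share was 3.52 (Alyref minus Control) and 2.24 (Chtop minus Control), and the rRNA share was 1.79 (Alyref minus Control), 1.56 (Chtop minus Control), -0.345 (Nxf1 minus Control) and -2.02 (Nxf1 minus Alyref and Chtop). Without positions at a shared offset, Alyref minus Control was 0.876 in plus-strand, 5.24 in rRNA and -2.72 in coding share, and Chtop minus Control 0.796 in plus-strand and -0.655 in coding share. Leaving out single libraries gave, for Alyref minus Control, -3.86 to 1.84 in plus-strand, -2.29 to 1.42 in rRNA and -0.325 to 4.25 in coding share. It gave -2.54 to 3.94 in coding share for Chtop minus Control, and -1.91 to 3.79 in plus-strand and -2.27 to 7.24 in rRNA share for Nxf1 minus Control. For Nxf1 minus Alyref and Chtop it gave -0.774 to 8.74 in rRNA, -0.411 to 7.77 in coding and -1.17 to 0.159 in control region share. The sense share over all chrM genes, rRNA included, stayed below that of nuclear coding sequence, by -2.04 to -1.46 points leaving out single libraries. It missed the threshold in 6 of these 12 exact permutation tests.

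The number of mitochondrial genes called against Control was 3 of 8 for Alyref with the replicate block, where 75 of 3248 genes were called. It was 6 of 20 without the replicate 1 libraries (124 of 8299 genes). Leaving out single libraries it was 0 to 6, where 0 to 84 genes were called. For Chtop it was 6 of 8 with the block, where 534 of 3248 genes were called. With no filter beyond 1 tag it was 1 of 33 (412 of 23474 genes). Without the replicate 1 libraries it was 7 of 20 (800 of 8299 genes). Leaving out single libraries it was 0 to 8, where 95 to 682 genes were called. In Nxf1 against Alyref and Chtop it was 7 of 8 with the block, where 480 of 3248 genes were called. With no filter beyond 1 tag it was 10 of 33 (561 of 23474 genes). Without the replicate 1 libraries it was 15 of 20 (1011 of 8299 genes). Leaving out single libraries it was 1 to 11, where 55 to 687 genes were called. For Nxf1 against Control it was 0 in all settings, where 0 to 3 of all genes were called. Per the labels, same-numbered libraries ran on the same lanes, so the block also stands for the lane combination, while their deviations from the group means had correlations of -0.17 to 0.25. MT-CO1 against Control changed sign without Control 2, which held the 8 Control tags of this gene: the fitted value leaving out single libraries was -1.85 to 6.14 in Alyref and -3.21 to 5.13 in Chtop, and a fitted fold against libraries at 0 is no bound.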
